A study of Danio rerio with 8 samples.

Results

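The ubiquitin enzymes of the zebrafish heart were examined in ventricles after surgical resection. They comprise the conjugating enzymes, the ligases with their cullin and F-box subunits, and the deubiquitinases. Members were the probe sets whose single gene symbol in the platform annotation begins with ube2, ube3, cul, fbx, rnf, trim, usp, otu or uchl, with a digit after cul, rnf, trim and usp and with ube2c left out. This rule used no measured value and gave 178 of 15502 probe sets, which stand for 147 of 8793 genes. Expression was measured on an Affymetrix array in 4 pools of resected and 4 pools of control heart ventricles from Danio rerio, each pool made of 50 ventricles taken 2 weeks after surgery. Neither the age and strain of the fish nor the handling of the control fish is given in the sources used here, and one array stands for one pool, so the spread between single animals was not measured. Expression is given as log2 values summarised by RMA. Each difference is the resected mean less the control mean (log2, n = 4 arrays in either group), given ± its standard error (SE) from limma. Adjusted p-values are limma's over all 15502 probe sets, and a member was called at an adjusted p under 0.05.

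Ubiquitin is a small protein that cells attach to other proteins to mark them for the proteasome or to change their activity. An activating enzyme (E1) hands it to a conjugating enzyme (E2), and a ligase (E3) brings the E2 to the substrate. Ligases of the RING type, such as the RNF and TRIM proteins, bind the E2 directly, whereas cullins are scaffolds that join a RING subunit to adaptors such as the F-box proteins. Deubiquitinases of the USP, OTU and UCH families remove ubiquitin again. In striated muscle the ligases atrogin-1 (fbxo32) and MuRF1 (trim63) are known for their part in protein breakdown during wasting.

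Of the 178 member probe sets, 3 rose and 8 fell in resected ventricles, each from a different gene. The risers were ube2t, uchl3 and usp33, and the decreases were in fbxo25, rnf11a, rnf185, usp13, cul4b, fbxl2, fbxo9 and rnf216. These 11 are 6.18% of the members, close to the 6.85% of all probe sets called in either direction, so their number is no result about the members as a group. By direction, 1.69% of the members rose, beside 4.28% of all probe sets, and 4.49% fell, beside 2.57%. With each gene read at its brightest probe set, 10 of 147 member genes were called (6.8%, beside 8.05% of all genes). Of these, 3 rose and 7 fell, and fbxo25 was left out because its brighter probe set did not pass. The changes of the 11 called probe sets were small, between 1.24-fold and 2.01-fold. Groups did not overlap for 9 of the 11, beside 16.9% of all members and 14.3% of all probe sets. A call itself favours separate groups, so this count adds no support.

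Over all 178 members, called ones included, more lay on the lower side. Their median difference was -0.08, beside -0.05 over all probe sets, and 67.4% of them had a negative difference, beside 60.4%. Of the 167 members not called, 112 had a negative difference. At an unadjusted p under 0.05, 33 members were lower (18.5%, beside 11.8% of all probe sets) and 7 higher (3.93%, beside 11.3%). The 4 resected values lay wholly below the 4 control values for 26 members (14.6%, beside 7.35%) and wholly above them for 4 (2.25%, beside 6.95%). These counts describe the set and carry no test. The mean over the 178 members, set against the control mean, was -0.11, -0.09, -0.11 and -0.03 in resected arrays, against 0.05, -0.02, 0.01 and -0.04 in control arrays. The fourth resected array lay within the control range and the other 3 below it. The same mean was not taken over all probe sets, whose median difference was negative too. These array means therefore do not show what is particular to the members.

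The number of calls turned on single arrays. Without resected replicate 1, 2 or 3, or control replicate 4, the member calls came to 3, 3, 2 and 3. Without control replicate 1 they came to 7, and without control replicate 2 to 15. The 3 increases became 1 without any single resected array or control replicate 4, 2 without control replicate 1, and 6 without control replicate 3. The 8 decreases became 2, 2, 1 and 7 without resected replicates 1, 2, 3 and 4. Without control replicates 1, 2, 3 and 4 they became 5, 12, 3 and 2. Calls over all probe sets lay between 545 and 1608 with an array left out. Their share was 4.9%, 3.52%, 3.9% and 6.1% without resected replicates 1, 2, 3 and 4. It was 5.52%, 10.4%, 5.03% and 4.14% without control replicates 1, 2, 3 and 4, beside 6.85% with every array. The member calls for ube2t and usp13 passed with each of the 8 arrays left out, and the other 9 did not.

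**Figure D1:**
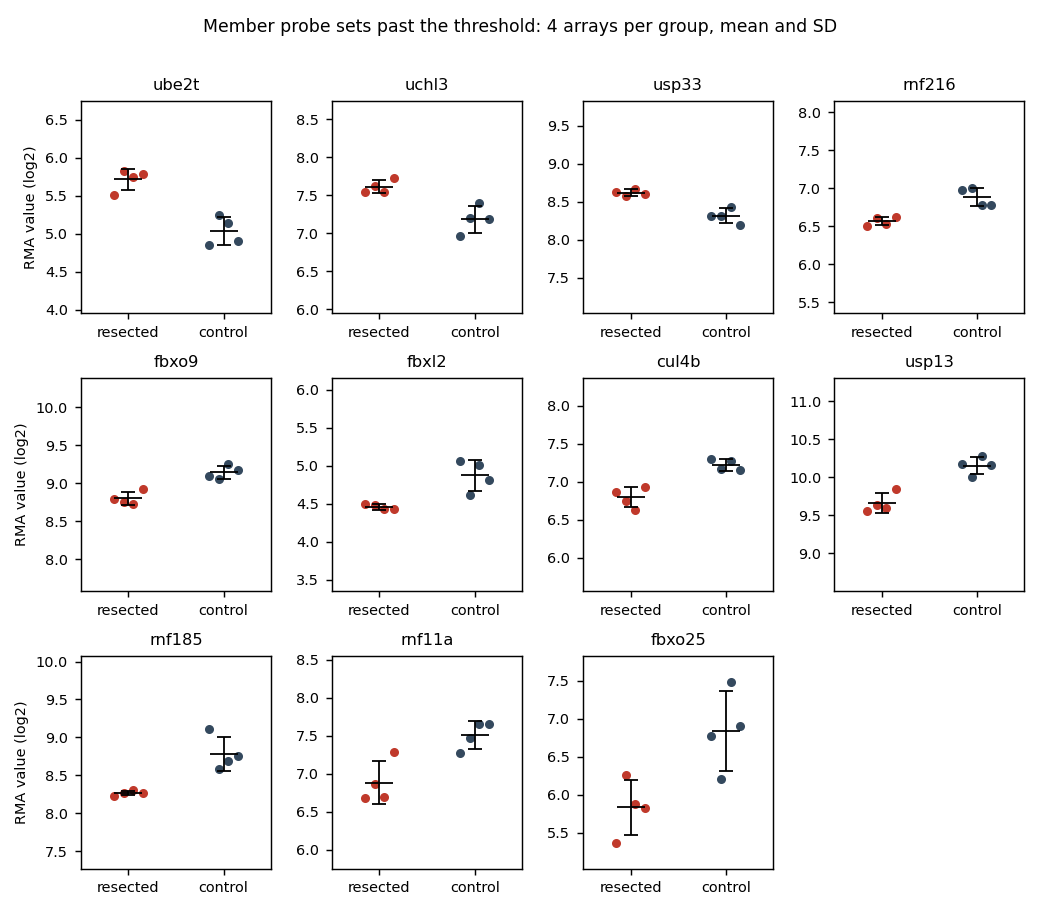
RMA value (log2) of the 11 called member probe sets on each array, resected left and control right, with points for arrays and bars for the mean and SD; all panels span the same height but start at different values. The groups are apart in 9 panels and overlap in those of rnf11a and fbxo25.

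Among the conjugating enzymes 1 of 32 probe sets rose and 0 fell, beside 4.28% and 2.57% of all probe sets. The riser was ube2t, the E2 that in human cells puts ubiquitin on the FANCD2 protein in the Fanconi anaemia pathway of DNA repair. Its values were 5.51, 5.83, 5.74 and 5.78 in resected ventricles, against 4.85, 5.24, 5.14 and 4.90 in control ventricles. All resected arrays lay above all control arrays, and the difference was 0.68 ± 0.11 (1.6-fold, adjusted p = 0.00558). Among genes of dividing cells 9 of 17 measured rose and 0 fell, beside 5.05% and 3% of all genes. The mean over the 17 lay 0.46 to 0.75 above the control mean in resected arrays, against -0.12 to 0.16 in control arrays. Not all moved: aurka (0.06), ccnb2 (0.01), mcm3 (-0.01), top2a (-0.03) and mcm6 (-0.04) had differences near 0. Without resected replicate 2 or 3, or control replicate 3 or 4, 5 of the 17 passed. The part of dividing cells in the ube2t result was not tested. In whole ventricles, a change in the number of cells of a type and a change in RNA per cell cannot be told apart.

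The E2 ube2n, together with the catalytically inactive partners ube2v1 and ube2v2, builds ubiquitin chains that signal rather than mark for the proteasome. Of its copies, ube2na stood at 7.42, 7.60, 7.42 and 7.64 in resected ventricles, against 6.85, 7.24, 7.30 and 6.73 in control ventricles. The groups did not overlap, but the difference of 0.49 ± 0.13 missed the threshold (adjusted p = 0.055). It passed without control replicate 2 (adjusted p = 0.0314) or control replicate 3 (0.0344), with a robust variance prior (0.0497) and after further quantile normalization (0.0474). For ube2nb the difference was 0.30 ± 0.10 (adjusted p = 0.115), and 1 control array, replicate 3 at 8.66, stood among the resected values of 8.63 to 8.78. Without that array ube2nb passed at 0.39 (adjusted p = 0.0397). The partners ube2v1 (-0.06 ± 0.09) and ube2v2 (-0.05 ± 0.09) had differences within their errors.

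The brain-expressed E2 relative ube2ql1 was lower with both of its probe sets without a call. At one it had 5.24, 5.08, 5.22 and 5.23 in resected ventricles, against 5.60, 5.29, 5.42 and 5.76 in control ventricles, with no overlap and a difference of -0.32 ± 0.11 (adjusted p = 0.102). At the other, with -0.56 ± 0.27, control replicate 2 (8.03) stood among the resected arrays (7.85 to 8.64). Without that array both passed, at -0.40 (adjusted p = 0.0359) and -0.83 (0.0269).

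Other E2s did not pass. The difference was -0.33 ± 0.12 for ube2g2, which serves protein degradation from the endoplasmic reticulum, with groups apart but adjusted p = 0.13. For ube2a, a Rad6 enzyme that acts on histone H2B and PCNA, it was 0.26 ± 0.09 (adjusted p = 0.129), and control replicate 1 at 9.97 lay among the resected values. Without that array it passed at 0.33 (adjusted p = 0.0464). The broadly acting ube2d enzymes did not pass at any of 5 genes, with -0.09 for ube2d1a, 0.14 for ube2d1b, -0.14 for ube2d2, -0.03 for ube2d2l and -0.01 for ube2d3. Their sequences are close, so probes may read more than 1 of them. In all, 24 of the 31 uncalled E2 probe sets lay within 0.25 of 0, beside 11837 of all 15502 probe sets, called ones included.

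**Figure D2:**
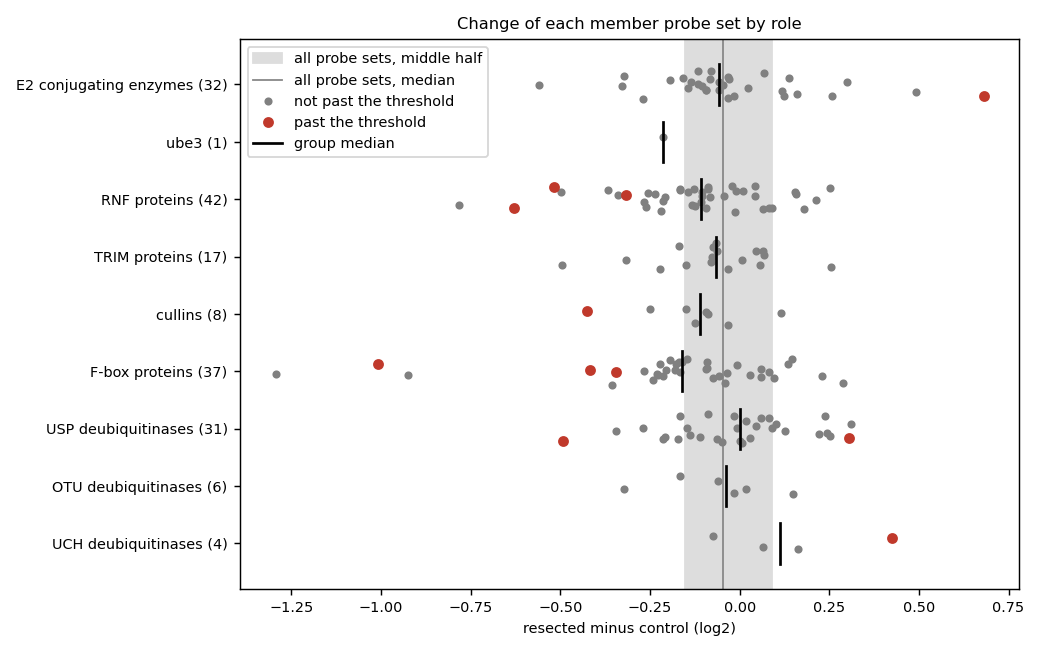
Difference of each of the 178 member probe sets (resected minus control, log2, horizontal axis) by role, with the number of probe sets in brackets, called ones in red, group medians as black bars and the interquartile range of all probe sets in grey. F-box probe sets have the lowest median of the groups with more than 1 probe set (-0.16), and the UCH group the highest (0.11).

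The single ube3 member, ube3d, which encodes a ligase of cyclin B in human cells, was at -0.21 ± 0.09 (adjusted p = 0.187), with its groups apart at 5.28, 5.25, 5.40 and 5.04 in resected ventricles, against 5.43, 5.46, 5.42 and 5.52 in control ventricles.

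Of the 42 probe sets of RNF proteins, which carry a RING finger, 3 fell and 0 rose, beside 2.57% and 4.28% of all probe sets. The endoplasmic reticulum ligase rnf185, which in human cells helps to degrade misfolded membrane proteins, had 8.24, 8.27, 8.31 and 8.27 in resected ventricles, against 9.11, 8.59, 8.70 and 8.75 in control ventricles. The resected values were tight and all lay below the controls, of which replicate 1 was the highest. The difference was -0.52 ± 0.11 (1.43-fold lower, adjusted p = 0.0202), and the call ended without resected replicates 1, 2 or 3 or control replicate 4 (adjusted p = 0.05004 to 0.06).

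The small RING protein rnf11a belongs, in mammals, to a complex that restrains NF-kappaB signalling. It showed 6.68, 6.87, 6.70 and 7.29 in resected ventricles, against 7.27, 7.48, 7.66 and 7.65 in control ventricles. Resected replicate 4 reached the lowest control array, while the other 3 stayed below all controls. The difference was -0.63 ± 0.15 (1.55-fold lower, adjusted p = 0.0292), and the call ended without resected replicates 1, 2 or 3 or control replicates 3 or 4 (adjusted p = 0.0696 to 0.0879). Its paralog rnf11b was at -0.17 ± 0.10 (adjusted p = 0.338), and the difference between the paralogs was not tested.

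The third, rnf216, a ligase that acts on Toll-like receptors in human cells, had 6.50, 6.60, 6.53 and 6.62 in resected ventricles, against 6.97, 7.001, 6.78 and 6.78 in control ventricles. Its groups did not overlap, but the difference of -0.32 ± 0.08 (1.25-fold lower) stood at the threshold (adjusted p = 0.04996). The call ended without any 1 array (adjusted p = 0.0567 to 0.128), and with an intensity-dependent (0.0732) or robust (0.0508) variance prior and with median centring (0.0501).

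Among the RNF members that did not pass, rnf144ab had the largest difference. The values of this RING-between-RING ligase were 6.17, 6.67, 6.33 and 6.55 in resected ventricles, against 7.94, 6.73, 7.09 and 7.09 in control ventricles. Control replicate 1 was high and the groups did not overlap, with a difference of -0.78 ± 0.22 (adjusted p = 0.0639). It passed without control replicate 2 (adjusted p = 0.0203) and with array weights (0.0397). The endosomal membrane protein rnf13 was at -0.50 ± 0.15 (adjusted p = 0.0808), and at -0.64 (0.0134) without control replicate 2, whose 6.01 lay among the resected values of 5.72 to 6.04.

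Several RNF members act on chromatin and DNA damage, a grouping made after their values were seen. The polycomb ligase rnf2, which modifies histone H2A, was at -0.34 ± 0.12 (adjusted p = 0.132), and passed at -0.44 without resected replicate 4 (0.0444). The SUMO-targeted ligase rnf4 was at -0.26 ± 0.09 (adjusted p = 0.105), with groups apart. The H2B ligase pair rnf20 (0.09 ± 0.09 at its brighter probe set) and rnf40 (-0.13 ± 0.10) and the damage-signalling pair rnf8 (-0.10 ± 0.09) and rnf168 (-0.01 ± 0.12) had smaller differences, none called. Over the whole RNF group 31 of the 39 uncalled probe sets lay within 0.25 of 0, beside 11837 of all 15502 probe sets. The highest was rnf181 (0.25). The name is a label of sequence, not of a shared role: rnf17 (-0.09) is known from germ cells and rnf113a (-0.09) from the spliceosome.

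None of the 17 TRIM probe sets was called by limma. At an unadjusted p under 0.05, 3 were lower and 0 higher, beside 11.8% and 11.3% of all probe sets. The smallest p was that of trim71, the vertebrate lin-41, which is a target of the let-7 microRNA in worms and vertebrates. It had 5.54, 5.86, 5.83 and 5.92 in resected ventricles, against 6.10, 5.98, 6.19 and 6.14 in control ventricles, and no resected array reached the lowest control. The difference was -0.32 ± 0.10 (adjusted p = 0.0842). Next came one probe set of trim35-29, at -0.22 ± 0.08 (adjusted p = 0.131), while the other probe set of that gene was at -0.08 ± 0.09. Zebrafish carry many trim35-like copies that the probes may not separate.

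The muscle ligases did not pass either, and 2 of the 6 measured had an unadjusted p under 0.05 (limma), both in the lower direction. Over all genes 12.7% lay lower and 12.7% higher at that level. For fbxo32, the F-box protein atrogin-1, the values were 6.27, 5.82, 4.73 and 6.91 in resected ventricles, against 6.87, 7.16, 7.40 and 7.47 in control ventricles. Resected arrays were widely spread: replicate 3 was lowest and replicate 4 lay within the control range. The difference of -1.29 ± 0.37, or 2.45-fold lower, was larger over all arrays than that of any called member but missed the threshold (adjusted p = 0.0646), and it turned on single arrays. It was -1.62 (adjusted p = 0.0182) without resected replicate 4, and -0.89 (0.0787) without the low resected replicate 3. For trim63a, a MuRF1 gene whose product binds titin, the values were 10.12, 9.65, 9.34 and 10.23 in resected ventricles, against 10.25, 10.35, 10.55 and 10.17 in control ventricles. Resected replicates 1, 2 and 3 lay below all controls, replicates 2 and 3 by the most, and replicate 4 lay within their range. The difference was -0.49 ± 0.18 (adjusted p = 0.137), and -0.33 (0.278) without resected replicate 3.

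The remaining muscle ligases had no common direction. The second MuRF1 gene, trim63b, read 8.99, 8.22, 8.24 and 9.01 in resected ventricles, against 8.38, 8.79, 8.55 and 8.56 in control ventricles. Here too resected replicates 2 and 3 were the low pair, but replicates 1 and 4 exceeded all controls and the difference was 0.05 ± 0.19. The MuRF2 genes were at 0.25 ± 0.27 for trim55a and -0.17 ± 0.15 for trim55b. In controls trim55a ran from 6.20 in replicate 3 to 7.70 in replicate 1, and its difference was -0.02 without replicate 3 and 0.48 without replicate 1. The F-box gene fbxo30a was at -0.18 ± 0.11. Of 6 heart muscle markers 1 rose, myh7 (0.83 ± 0.11, 1.78-fold, adjusted p = 0.00182), and 0 fell. Their summed level (log2 of the summed linear values) was 15.96 to 16.08 in resected arrays, against 16.04 to 16.17 in control arrays, lowest in resected replicate 3. Its largest terms, actc1a and myl7, had means of 14.43 and 13.99 in resected and 14.48 and 14.04 in control arrays. These lie near the highest value of any array, 14.64, so the sum is a weak measure of heart muscle content. Fast skeletal muscle markers, whose cells also express these ligases, rose for 11 of 16 genes and fell for 0. Their summed level was 13.63 to 13.81 in resected arrays, against 13.44 to 13.87 in control arrays, a sum in which ckma, at 13.27 to 13.38 in resected and 13.09 to 13.48 in control arrays, is the largest term. The mean over the 16 genes, set against the control mean, did not overlap, at 0.65 to 1.28 in resected arrays, against -0.07 to 0.13 in control arrays. The part of such cells in the ligase values was not tested.

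**Figure D3:**
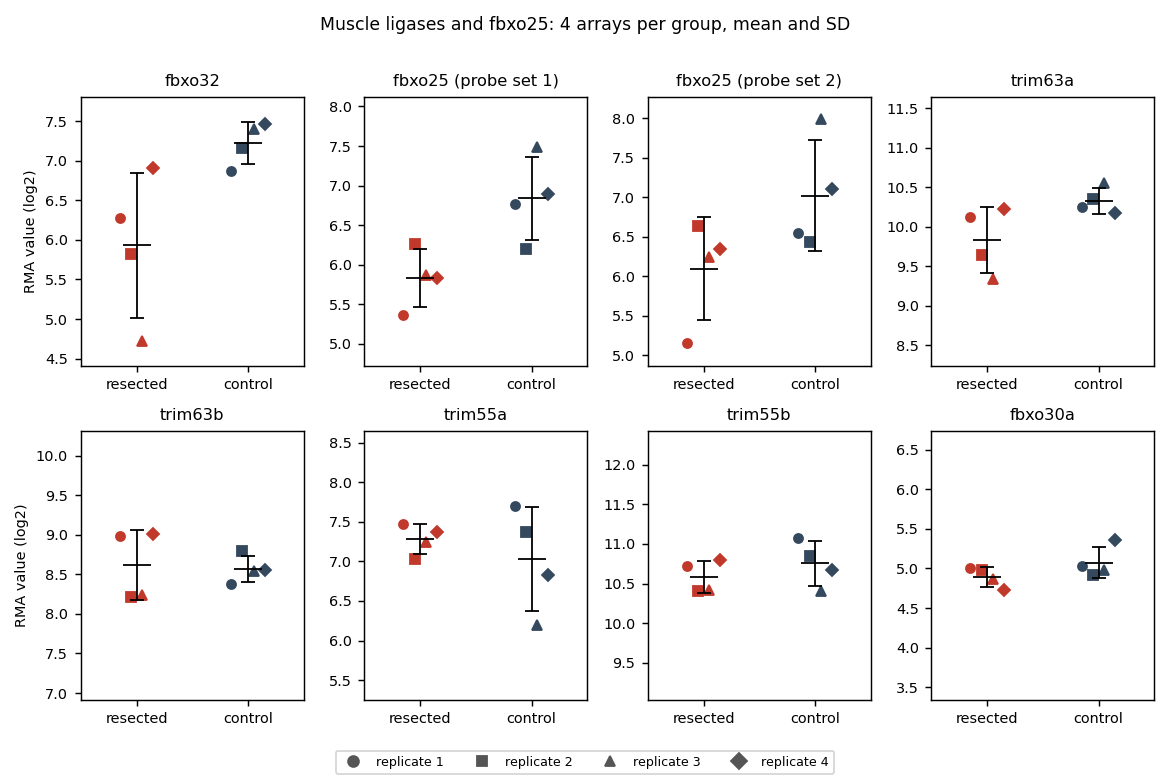
RMA value (log2) of fbxo32, the probe sets of fbxo25, the MuRF genes and fbxo30a on each array, resected left and control right, with one symbol per replicate number (the labels state no pairing by number) and bars for the mean and SD. For fbxo32 and for each MuRF gene (trim63a, trim63b, trim55a and trim55b) the resected arrays 2 and 3 lie below resected arrays 1 and 4. For fbxo25 resected array 1 is the lowest, and for fbxo30a resected array 4.

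Of the 8 cullin probe sets 1 fell and 0 rose, beside 2.57% and 4.28% of all probe sets. It was cul4b, the scaffold that binds substrates through ddb1, with 6.87, 6.76, 6.63 and 6.94 in resected ventricles, against 7.30, 7.17, 7.28 and 7.15 in control ventricles. All resected values lay below all controls and the difference was -0.42 ± 0.09 (1.34-fold, adjusted p = 0.0197). Its second probe set was apart as well, at -0.25 ± 0.09, but did not pass (adjusted p = 0.11), and the average of both passed (-0.34 ± 0.08, adjusted p = 0.032). The call of the first ended without resected replicates 2 or 3 (adjusted p = 0.0605 to 0.0631). The scaffold of the F-box complexes, cullin 1, had 0.12 ± 0.11 for cul1a and -0.13 ± 0.14 for cul1b. The other members were cul3a, at -0.15 ± 0.11 and -0.09 ± 0.10 with its probe sets, cul5a at -0.03 ± 0.13 and cul5b at -0.09 ± 0.09, and none of them passed.

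F-box proteins choose the substrates of cullin 1 ligases. Of 37 probe sets 3 fell and 0 rose, beside 2.57% and 4.28% of all probe sets. Their median was -0.16, beside -0.05, and 28 differences were negative, beside 60.4% of all probe sets. The largest fall was that of fbxo25, a relative of atrogin-1 that in mouse hearts acts on the transcription factor Nkx2-5. The called probe set had 5.36, 6.26, 5.87 and 5.83 in resected ventricles, against 6.77, 6.20, 7.49 and 6.90 in control ventricles. Control replicate 2 lay among the resected arrays, and the change was -1.01 ± 0.25 (2.01-fold, adjusted p = 0.0406). The second probe set gave a similar -0.92 ± 0.37 with a larger error and no call (adjusted p = 0.169), and -0.61 or -0.60 without resected replicate 1 or control replicate 3. With both probe sets averaged, fbxo25 did not pass (-0.97 ± 0.31, adjusted p = 0.0853). The call of the first ended without resected replicates 1, 3 or 4 or control replicates 1, 3 or 4 (adjusted p = 0.0712 to 0.103), and also with a robust variance prior (0.0622).

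The other falls were smaller and their groups did not overlap. For fbxl2, a membrane-anchored F-box protein in human cells, the values were 4.50, 4.49, 4.42 and 4.42 in resected ventricles, against 5.07, 4.61, 5.01 and 4.81 in control ventricles. The resected arrays were nearly equal and low on the scale of the array, and the change was -0.42 ± 0.10 (1.33-fold, adjusted p = 0.0398). Its call ended without resected replicates 1, 2, 3 or 4 or control replicates 1, 3 or 4 (adjusted p = 0.0763 to 0.106) and after further quantile normalization (0.0577). For fbxo9 the values were 8.79, 8.75, 8.73 and 8.92 in resected ventricles, against 9.10, 9.06, 9.25 and 9.18 in control ventricles, with a change of -0.34 ± 0.08 (1.27-fold, adjusted p = 0.0315). In human cells fbxo9 targets regulators of the mTOR kinase. That call ended without resected replicates 1, 2 or 3 or control replicates 3 or 4 (adjusted p = 0.0739 to 0.0978), as it did when the variance prior followed intensity (0.0517).

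Further F-box members were low without a call. Groups were apart for fbxo42 (-0.36 ± 0.12), a p53-binding protein in human cells, for fbxo28 (-0.22 ± 0.08), for fbxl3b (-0.20 ± 0.08), a copy of the cryptochrome ligase, and for 1 of 2 probe sets each of fbxo11b (-0.27 ± 0.09) and fbxo44.5 (-0.24 ± 0.08). The smallest adjusted p among them was that of fbxo42, 0.0987. The copies of beta-TrCP, which act on beta-catenin, were at -0.23 ± 0.09 for fbxw11a and -0.01 ± 0.13 for fbxw11b. Differences near 0 were found for fbxo5 (-0.04 ± 0.08), an inhibitor of the anaphase-promoting complex, and the iron-sensing fbxl5 (0.10 ± 0.14 and -0.04 ± 0.09). On the upper side fbxo2, which binds glycoproteins, was highest at 0.29 ± 0.15, and passed at 0.44 without control replicate 3 (adjusted p = 0.0445).

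Among 31 probe sets of the USP group 1 rose and 1 fell, beside 4.28% and 2.57% of all probe sets. The group median was 0.00, beside -0.05. The group includes usp6nl (-0.17), which the symbol places here although its product is a GTPase-activating protein. The fall was in usp13, a deubiquitinase that in human cells acts in protein quality control at the endoplasmic reticulum. Its values were 9.56, 9.64, 9.59 and 9.85 in resected ventricles, against 10.17, 10.01, 10.28 and 10.16 in control ventricles. All resected values lay below all controls, and the change of -0.49 ± 0.09 (1.41-fold, adjusted p = 0.0117) passed with every array left out. The rise was in usp33, which in human cells acts on beta-arrestin and the receptor Robo1, with 8.63, 8.58, 8.67 and 8.60 in resected ventricles, against 8.31, 8.32, 8.43 and 8.19 in control ventricles. Its groups were apart, but at 0.31 ± 0.08 (1.24-fold, adjusted p = 0.0439) it was the smallest change called, and the call ended without resected replicates 1, 2, 3 or 4 or control replicates 1, 2 or 4 (adjusted p = 0.0585 to 0.122). It also ended when the variance prior followed intensity (0.0754) and with median centring (0.0505).

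The nearest to a call were usp44, which holds the spindle checkpoint in human cells, at -0.27 ± 0.09 (adjusted p = 0.0906), and usp25 at -0.35 ± 0.12 (0.117), both with groups apart. Without control replicate 1 usp25 was at -0.23 (adjusted p = 0.174). The deubiquitinase of FANCD2 and PCNA, usp1, which reverses the step of ube2t, was at 0.24 ± 0.18 (adjusted p = 0.447). Control replicate 1 had 6.38 for it and the other controls 7.09 to 7.25, as high as the resected arrays at 7.02 to 7.42. Of the deubiquitinases that sit on the proteasome, usp14 was at 0.25 ± 0.13 and uchl5 at 0.16 ± 0.12 and 0.06 ± 0.11. The recycler of free ubiquitin chains usp5 (0.06 ± 0.10), the Mdm2 partner usp7 (-0.11 ± 0.07 and 0.01 ± 0.12) and the endosomal usp8 (-0.14 ± 0.08) did not pass. Within 0.25 of 0 lay 25 of the 29 uncalled probe sets of the group, beside 11837 of all 15502 probe sets.

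For usp37, which stabilises cyclin A in human cells, probe sets went in opposite directions. One pair had 0.31 and 0.22, and the other pair had -0.21 and -0.17, with resected values below controls on all arrays for the second pair. The probe sets of a pair share the stem of their names, so their agreement is not that of independent readings. None was called (adjusted p = 0.192 for the smallest p), so no direction can be given for the gene.

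Of the 4 UCH probe sets 1 rose, beside 4.28% of all probe sets. This was uchl3, which trims ubiquitin and NEDD8 from small adducts, with 7.55, 7.62, 7.55 and 7.73 in resected ventricles, against 6.96, 7.20, 7.39 and 7.18 in control ventricles. The resected arrays were all above the controls, at 0.43 ± 0.10 (1.34-fold, adjusted p = 0.0321), and the call ended without resected replicates 1, 2, 3 or 4 or control replicates 1 or 4 (adjusted p = 0.06 to 0.0887). The neuronal enzyme uchl1 was at -0.07 ± 0.18, with control replicate 2 the highest array at 7.97. None of the 6 OTU probe sets was called. At an unadjusted p under 0.05 (limma), 1 was lower and 0 higher, beside 11.8% and 11.3% of all probe sets. The OTU members were otud5a (-0.32 ± 0.12, adjusted p = 0.143, and -0.21 without control replicate 1), otud7b (-0.17 ± 0.11), otud4 (-0.06 ± 0.08), otub1b (-0.01 ± 0.18), and the linear-chain enzymes otulina (0.15 ± 0.13) and otulinb (0.02 ± 0.11).

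Of the 147 genes 26 had more than 1 probe set. All probe sets of a gene shared a sign for 19 and differed in sign for 7, none of which was called. The 2 called genes among them, cul4b and fbxo25, each had 1 probe set that passed and 1 that did not, on the same side. For rnf130, a membrane ligase, the probe sets stood at -0.24 ± 0.09 and 0.21 ± 0.14.

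**Figure D4:**
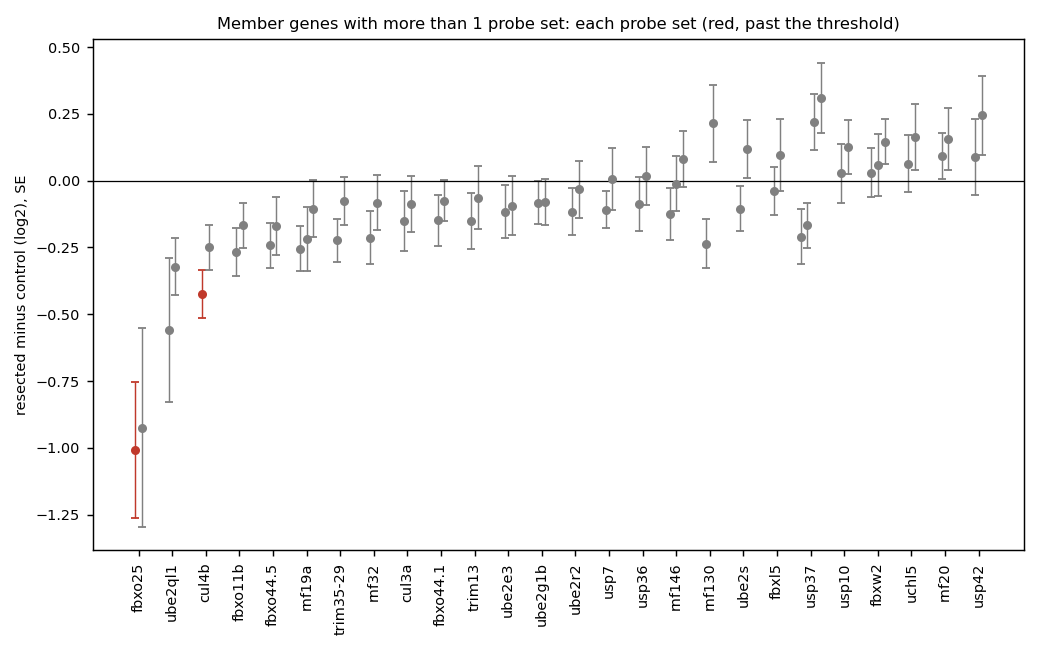
Difference of each probe set (resected minus control, log2, vertical axis) for the 26 member genes with more than 1, with SE bars and called probe sets in red, ordered by the mean of the gene. The probe sets of fbxo25 lie together near -1, and those of usp37 split into a pair above and a pair below 0.

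Elsewhere in the ubiquitin system few genes passed. Over all 8793 genes 5.05% rose and 3% fell. At an unadjusted p under 0.05 (limma), 12.7% of all genes lay higher and 12.7% lower. Of 14 genes of ubiquitin, its relatives and their E1 enzymes, limma called 0 (before adjustment, 4 were higher and 2 lower at 0.05). The nearest were the interferon-induced modifier isg15 (0.98 ± 0.27, adjusted p = 0.0584) and the ubiquitin E1 uba1 (0.36 ± 0.12, 0.0907). The groups were apart for uba1 and overlapped for isg15. Without control replicate 2, or resected replicate 4, 3 and 2 of these genes passed. Of 23 partners of cullins, which include the member rnf7, limma called 0 (before adjustment, 1 lay higher and 7 lower at 0.05). The nearest were kctd10 (-0.37 ± 0.11, adjusted p = 0.0682) and dcaf7 (-0.27 ± 0.08, 0.0736). After further quantile normalization 3 of them passed.

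A further list held 15 genes of the anaphase-promoting complex, the ligase of mitotic exit, and its partners, with the members ube2s and fbxo5. Of these genes 2 fell and 0 rose, beside 3% and 5.05% of all genes. They were the coactivator fzr1a (-0.60 ± 0.13, adjusted p = 0.0206) and the subunit cdc26 (-0.35 ± 0.09, 0.0471). The member ube2s, which extends chains for this ligase, was at 0.12 ± 0.11 and -0.11 ± 0.08. With an array left out, 0 to 2 of the 15 passed: 0 without resected replicate 2 and 1 without any other array but control replicate 4. In a list of 36 genes drawn up as ligases outside the symbol pattern 2 rose and 0 fell. These were uhrf1 (2.14-fold higher with an SE of 0.23 in log2, adjusted p = 0.0203), which maintains DNA methylation after replication, and birc5a (0.72 ± 0.14, 0.0149), a survivin that acts in mitosis. The survivins birc5a and birc5b were counted in this list but are not ligases themselves. Of the 36, 1 passed without resected replicate 2 or control replicate 4.

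Of 14 other deubiquitinases and SUMO proteases 1 fell, zranb1b (-0.57 ± 0.09, adjusted p = 0.00519), whose product cuts atypical ubiquitin chains in human cells. Of 22 ubiquitin receptors and VCP cofactors, the autophagy receptor sqstm1 fell (-0.48 ± 0.09, adjusted p = 0.0092) and 0 rose. Next to it stood optn (-0.41 ± 0.11, adjusted p = 0.0504), another receptor of autophagy, chosen after its value was seen. In the same list nbr1a was at -0.69 ± 0.19 (adjusted p = 0.0559). Smaller differences were those of tax1bp1b (-0.17), tax1bp1a (-0.07) and nbr1b (-0.04), none called. Of the receptors 3 passed without resected replicate 4 or control replicate 2, and of the other deubiquitinases 2 passed without control replicate 2 or 3. List medians were 0.07 for ubiquitin and E1, -0.10 for cullin partners and -0.08 for the anaphase-promoting complex. They were -0.08 for other ligases, -0.14 for other deubiquitinases and -0.09 for receptors. Over all genes the median was -0.04.

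**Figure D5:**
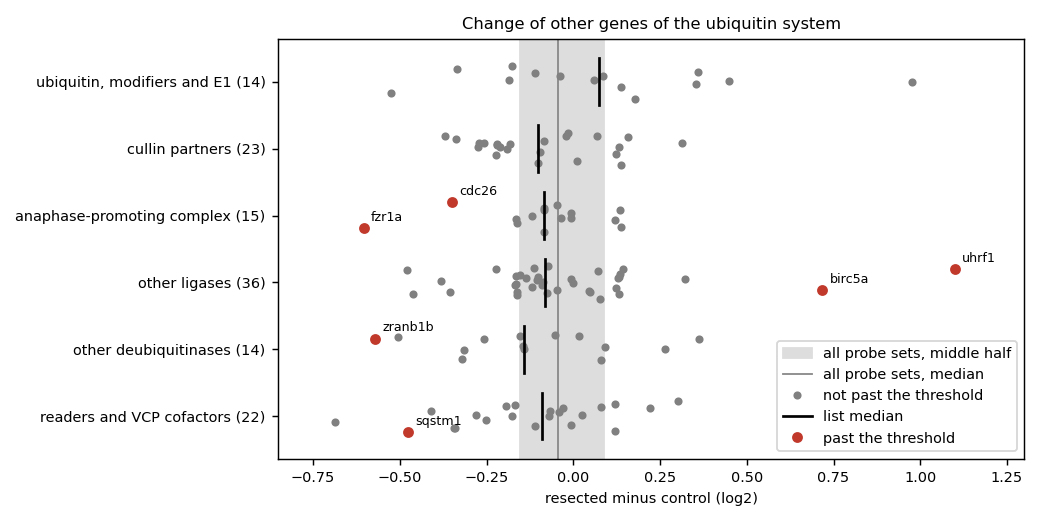
Difference (resected minus control, log2, horizontal axis) of the genes in 6 further lists of the ubiquitin system, with list medians as black bars, called genes in red with their symbols and the interquartile range of all probe sets in grey. The 2 called increases are in the list of other ligases, which also holds the survivins, and the 4 called decreases are spread over 3 lists.

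Markers of other cell types differed between the groups. Red cell markers rose for 7 of 13 genes, macrophage markers for 3 of 13 and fibroblast and epicardial markers for 7 of 9, and 0 of these fell. The summed level was 14.17 to 14.67 in resected against 13.27 to 13.36 in control arrays for red cell markers, and 13.36 to 13.55 in resected against 11.26 to 11.63 in control arrays for fibroblast markers. For macrophage markers it was 12.87 to 13.42 in resected and 12.42 to 13.15 in control arrays, with control replicate 2 highest among controls. Without that array 9 of 13 macrophage markers rose, and without resected replicate 2 or 3, 1 did. As a sign of RNA quality, the 3' signal of the actin control less its 5' signal was -1.74 to -1.46 in resected and -2.30 to -1.98 in control arrays (exact permutation test, two-sided, p = 0.0286, the smallest that 4 against 4 arrays can give, and 0.0571 adjusted over 2 controls). This control reads acta1, a skeletal muscle actin, and fast skeletal muscle markers rose too. The part of muscle content in its difference was not tested. The same measure for GAPDH overlapped (0.80 to 1.05 in resected and 0.77 to 1.07 in control arrays). The part of these marker and RNA quality differences in the member results was not tested.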

How the data were processed

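The deposited values are log2 expression, which the authors obtained with affy and RMA (background correction, quantile normalization, probe summarisation), per the submitters' processing notes, without versions. RMA gives no detection call, and precision is limited by having 4 arrays in a group. Of 15617 probe sets, 115 controls were left out. Symbols came from the platform annotation: 10795 probe sets had 1, 135 several and 4572 none. Entrez identifiers of all 178 members matched a gene table of the GRCz12tu assembly, and 0 symbols were replaced. No coordinates or sequences are given here. Columns were matched by sample label, with 0 unused. The groups were set against each other by limma 3.58.1 under R 4.3.3 (lmFit, eBayes), two-sided, with Benjamini-Hochberg adjustment over 15502 probe sets. A gene in the lists, and in counts by gene, is its probe set with the highest mean. A summed level is log2 of the summed linear values. List sizes give the genes measured.

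The members, 9 role groups, 13 lists and tests were chosen with earlier results of these data known. Named are all called members, all members of role groups of up to 10 genes, 2 next to the threshold in larger groups, the muscle ligases, genes whose probe sets disagree, and from other ubiquitin lists up to 4 called genes or the 2 with the smallest p. Other members are named to account for the groups, after their values were seen. The labels call the samples biological replicates. The fit was tested on simulated data: 15502 probe sets drawn from the measured means and variances, with 200 of them changed in each of 20 draws. Of these, 50.8% of log2 changes of 0.5 and 90.4% of those of 1 were recovered, and 5.14% of calls fell on unchanged probe sets. The draws were normal and independent, without differences shared by the probe sets of an array. Fewer probe sets were changed than the 1062 called in the data, so these rates need not hold for the data. Alternatives comprised the replicate number as a block, an intensity-dependent or a robust variance prior, unmoderated variances, array weights, further quantile normalization or centring, filters on dim probe sets, other thresholds, averaging all probe sets of a gene, and leaving out each array.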

Additional observations from a re-analysis of the deposited data

Results flagged for a closer look

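Of 88 groups of 4 arrays examined, for 44 named probe sets, 2 held an array far from the other 3, where chance flags about 1 in 20 groups. For ube2ql1, an E2 relative, resected replicate 2 had 5.08 at one probe set and the other resected arrays 5.22 to 5.24. The gap was 0.877 of the range of the group, above Dixon's critical value. For the scaffold cul1a resected replicate 4 had 8.02 and the other resected arrays 8.20 to 8.23, a gap of 0.833 of the range. Neither probe set was called.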

How the results depend on the processing

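The member median lay below that of all probe sets in each of 17 settings (-0.09 to -0.06, against -0.05 to -0.03). Not all of these could change that order. The replicate block, the intensity trend, the robust prior and unmoderated variances leave the differences as they are, and median centring shifts both medians alike. Without variance moderation 0 members passed (0 higher, 0 lower, 0 genes, and 0 in every role group), of 299 probe sets in all. Markers then passed for 3 red cell, 6 skeletal muscle, 0 macrophage and 2 proliferation genes, and 0 anaphase and 0 other ligase genes passed. The labels state no pairing by replicate number. Same-numbered arrays deviated together with correlations of 0.121, 0.137, -0.008 and -0.16, against -0.222 to 0.304 for arrays of unlike number. So few correlations cannot settle whether the numbers pair the samples. With the replicate block 5 members (1 higher, 4 lower, 5 genes) and 1026 probe sets passed, with 0 F-box, 0 UCH, 1 USP, 1 anaphase, 1 E1-list and 8 macrophage genes. At an adjusted p of 0.1 and 0.01, 18 and 1 member probe sets passed (12.1% and 2.46% of all probe sets). Over all probe sets 6.93% passed with a robust prior, 7.48% with further quantile normalization, 6.64% with an intensity trend and 6.78% with median centring. The share was 7.35% with array weights, and 9.68% and 8.4% without probe sets of mean under 5 and 4, beside 6.85% in the main fit. Calls numbered 2 for E2s with a robust prior or further quantile normalization, and 1 for USPs with an intensity trend or median centring. They numbered 1 in the anaphase list with a trend, 1 among other ligases without probe sets of mean under 5, and 2 among other deubiquitinases with array weights or median centring. The receptor list gave 2 with a robust prior, 3 with array weights, 4 with quantile normalization and 2 with either filter, and cullin partners gave 3 with quantile normalization. The cause was not tested.

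With an array left out, 2 to 15 members passed (1 to 6 higher, 1 to 12 lower, 2 to 13 genes). The ranges were 1 to 4 for E2s, 0 to 4 for F-box and 0 to 4 for RNF proteins, 1 to 2 for USPs, 0 to 1 for UCHs and 0 to 1 for cullins. In the lists they were 0 to 1 for muscle ligases, 0 to 3 for E1, 0 to 2 for anaphase, 1 to 3 for other ligases, 1 to 2 for other deubiquitinases, 1 to 3 for receptors, 1 to 9 for macrophage and 5 to 11 for proliferation genes. Over all probe sets the range was 545 to 1608. Some uncalled differences turned sign: trim63b (-0.0855 to 0.18), trim55a (-0.0202 to 0.48), the second uchl5 probe set (-0.0155 to 0.12), uchl1 (-0.21 to 0.10), otulinb (-0.0764 to 0.10), otub1b (-0.13 to 0.15), cul1b (-0.20 to 0.0159) and cul5a (-0.17 to 0.0607).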
